A study of Mus musculus with 12 samples.

Results

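The genes described here encode the subunits of the mouse receptors for glutamate and GABA. They are the 45 protein-coding genes, of 25556 in the joined count tables, whose symbol is that of an AMPA (Gria), NMDA (Grin), kainate (Grik) or metabotropic (Grm) glutamate receptor subunit, a GABA-A subunit (Gabra to Gabrr), or Gabbr1 or Gabbr2 of the GABA-B receptor. The choice used the symbol and gene type alone, and 1 further symbol match was left out because it was not protein-coding. Brains of male C57BL6 mice were sequenced, 3 RNA libraries in each of 4 groups. THC_LPS and THC_Ctrl mice were injected intraperitoneally once a day from postnatal day 30 to 44 with 5 mg/kg of tetrahydrocannabinol (THC), the compound that makes cannabis intoxicating, while Veh_LPS and Veh_Ctrl mice received its vehicle, 8% Tween-80 in saline. At day 70, THC_LPS and Veh_LPS mice received 0.33 mg/kg of lipopolysaccharide (LPS), from the outer membrane of bacteria and used to set off inflammation, and THC_Ctrl and Veh_Ctrl mice received saline. All brains were taken 24 h later, and the sources used here do not give the brain region.

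Glutamate and GABA carry most of the fast excitation and inhibition of the brain. AMPA, NMDA and kainate receptors are glutamate-gated cation channels, and GABA-A receptors are GABA-gated chloride channels; each is assembled from several subunits, and the subunit mix sets how fast the channel opens, what passes through it and which drugs bind it. The metabotropic glutamate receptors and the GABA-B receptor act through G proteins instead. THC acts at cannabinoid receptors on the terminals that release glutamate and GABA, and adolescence is a time when the subunit mix of these receptors is still maturing.

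The 4 AMPA genes are shown first by the stretch that sets what their channel passes. The windows are 60 bases of coding sequence around the pore loop, from GENCODE M21 transcripts on GRCm38, and the capitals mark the genomic codon of the glutamine/arginine site, which RNA editing recodes in the Gria2 transcript and which makes Gria2-containing channels poorly permeable to calcium. Counts per gene carry no information on that editing. The window lies at chr11:57243058-57243117 (+) for Gria1, at chr3:80706890-80706949 (-) for Gria2, at chrX:41610229-41610288 (+) for Gria3 and at chr9:4464116-4464175 (-) for Gria4.
Gria1 pore loop: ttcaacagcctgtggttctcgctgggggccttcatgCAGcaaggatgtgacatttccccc
Gria2 pore loop: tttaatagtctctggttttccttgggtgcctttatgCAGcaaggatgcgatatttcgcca
Gria3 pore loop: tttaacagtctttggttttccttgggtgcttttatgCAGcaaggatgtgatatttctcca
Gria4 pore loop: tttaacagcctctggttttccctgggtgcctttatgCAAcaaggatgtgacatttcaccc
Against Gria2, 91.7% of the 60 bases were the same in Gria3, 86.7% in Gria4 and 78.3% in Gria1. The longest exact run of coding bases shared by any AMPA pair was 41 bases, between Gria2 and Gria4, so reads of that length or less could not be told apart there. Over all members the longest was 81 bases, between Gabrr1 and Gabrr2.

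Several results below are also given with each library's trend on base composition removed. The central 90 coding bases of 3 members are therefore printed, each within 1 exon. Gria2 (chr3:80707804-80707893, -) and Gabra2 (chr5:71007924-71008013, -) stand for the members whose longest transcript is poor in G and C, and Grik5 (chr7:25046174-25046263, -) for those rich in them. G and C made up 38.9% and 45.6% of the windows of Gria2 and Gabra2, and 61.1% of that of Grik5.
Gria2 coding window: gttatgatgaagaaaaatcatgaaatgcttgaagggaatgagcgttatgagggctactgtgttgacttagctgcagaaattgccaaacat
Gabra2 coding window: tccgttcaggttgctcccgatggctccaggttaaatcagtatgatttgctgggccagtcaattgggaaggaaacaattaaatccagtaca
Grik5 coding window: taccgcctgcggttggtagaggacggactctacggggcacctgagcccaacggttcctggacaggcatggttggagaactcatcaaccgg
Over the longest annotated transcript, GC content was 36.8% for Gria2, 38.4% for Gabra2, 61.7% for Grik5 and 65.0% for Grin2d. The 41 tested members ran from 35.3 to 65.0% with a median of 47.1%, against a median of 49.8% over all tested genes.

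Libraries held 16.7 to 44.7 M reads, and 17208 genes, 41 of the 45 members among them, passed the filter on low counts. Nothing in the labels says that libraries of 1 group are from different mice, so a p-value here measures the spread between samples, which may be technical. Levels below are reads scaled to library size after TMM (CPM) when libraries are compared, and FPKM, which also divides by gene length, when genes are compared. THC_LPS replicate 3 stood apart: across all tested genes, the deviation of its log2 CPM from the 12-library mean had a Spearman correlation of -0.77 with GC content; the other 11 libraries had -0.02 to 0.36. Veh_LPS replicate 2 held 4157 CPM of 5 pituitary hormone transcripts, against 1.49 to 15.1 CPM in the other libraries. The summed level of 10 pan-neuronal markers ran from 5636 to 6479 CPM in THC_LPS, 5532 to 5878 in THC_Ctrl, 5521 to 5879 in Veh_LPS and 5803 to 6695 in Veh_Ctrl. Of the 15 cell type and region lists, the oligodendrocyte precursor pair summed higher in all Veh_Ctrl libraries (84.4 to 87.3 CPM) than in any other (62.8 to 81.8 CPM), and the cerebellar list higher in all THC_Ctrl libraries.

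In all 4 groups the GABA-B subunit gene Gabbr1 had the highest FPKM of any member. It averaged 162 ± 10.3 FPKM in THC_LPS, 184 ± 6.03 in THC_Ctrl, 177 ± 15.7 in Veh_LPS and 185 ± 12.8 in Veh_Ctrl (SD, n = 3 each). Gabbr1 binds GABA, and Gabbr2, which couples the pair to G proteins, averaged 42.4 FPKM over the 12 libraries. Gabbr1 made up 76.1 to 84.3% of the FPKM of the pair.

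**Figure D1:**
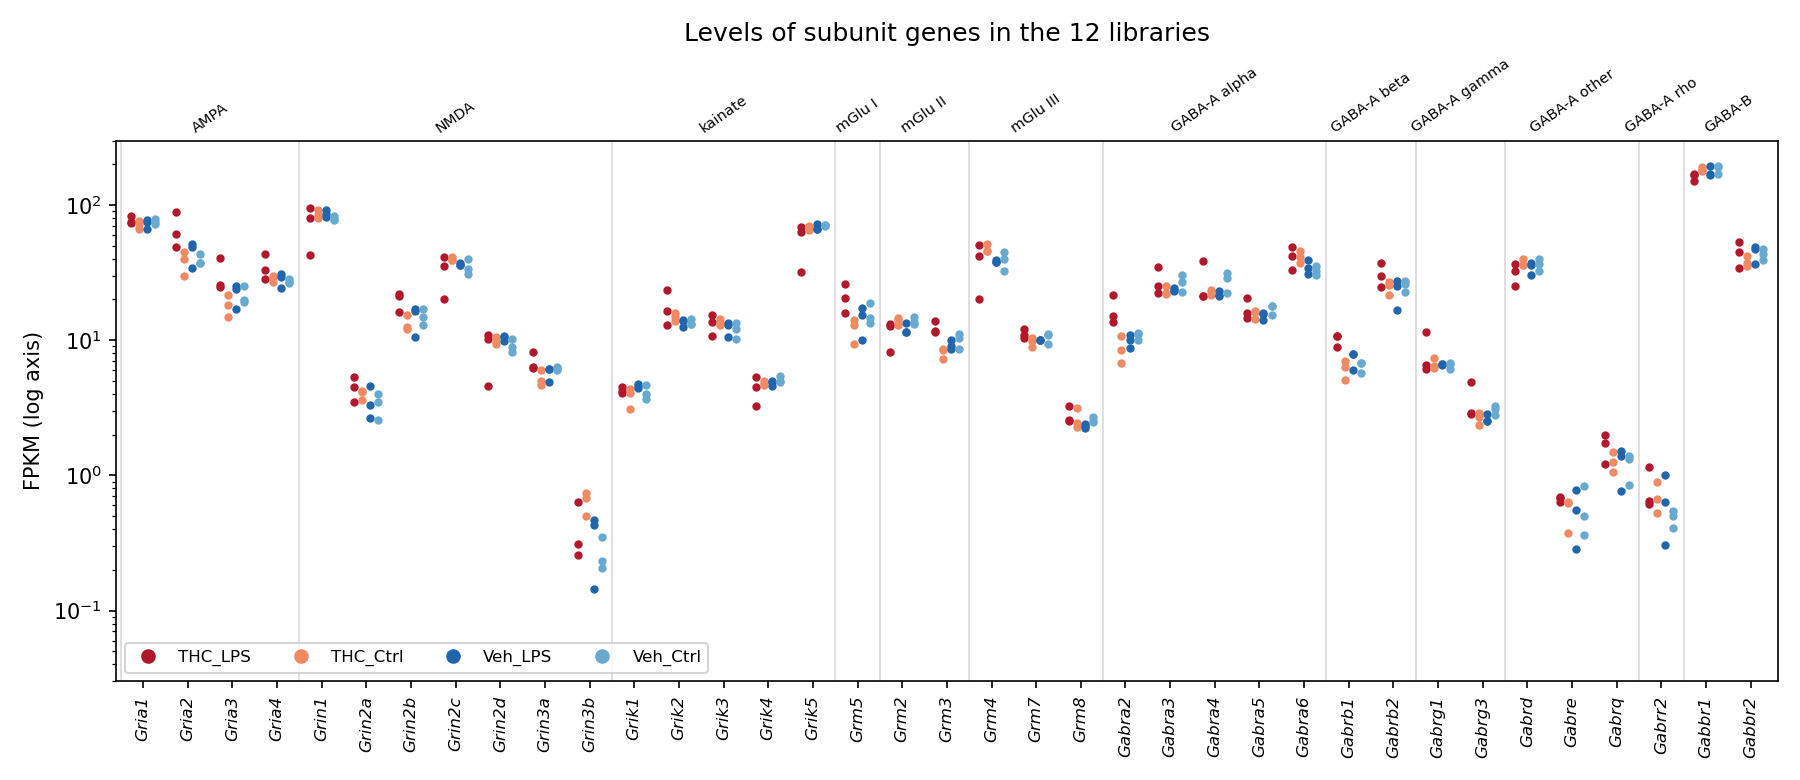
FPKM (log axis) of 37 tested subunit genes, grouped by receptor family; each point is a library, coloured by group. Gabbr1 is the highest at 150 to 195 FPKM, and the lowest tested member, Grin3b, is at 0.143 to 0.739.

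Of the glutamate-gated channels, Grin1, the obligatory subunit of NMDA receptors, had the highest mean FPKM over the 12 libraries, although Gria1 was above it in THC_LPS. Grin1 averaged 72.4 ± 26.8 FPKM in THC_LPS, 85.7 ± 6.07 in THC_Ctrl, 85.9 ± 4.96 in Veh_LPS and 80.0 ± 3.05 in Veh_Ctrl (SD, n = 3 each), and the wide spread in THC_LPS came with 42.7 FPKM in replicate 3. Among the Grin2 subunits, which bind glutamate, Grin2c averaged 35.9 FPKM over the 12 libraries, Grin2b 15.6, Grin2d 9.52 and Grin2a 3.83. The gene length behind these values is uneven: the files use 23640 bases for Grin2b and 4820 for Grin2a, whose longest M21 transcript has 14634. The glycine-binding Grin3a averaged 6.02 FPKM and Grin3b 0.413 FPKM.

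Gria1 led the AMPA family at 77.2 ± 5.11 FPKM in THC_LPS, 71.9 ± 4.79 in THC_Ctrl, 72.9 ± 5.63 in Veh_LPS and 75.5 ± 3.38 in Veh_Ctrl (SD, n = 3 each). Gria2, Gria4 and Gria3 followed with 47.1, 29.7 and 23.0 FPKM over the 12 libraries. The mix was not the same in all libraries. Gria1 made up 37.8% of the AMPA FPKM in THC_LPS on average, 45.9% in THC_Ctrl, 43.7% in Veh_LPS and 46.2% in Veh_Ctrl, while Gria2 made up 31.2%, 24.2%, 26.5% and 24.0% in the same order of groups. The lowest Gria1 share and the highest Gria2 share of any library, 30.0% and 35.9%, were those of THC_LPS replicate 3.

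Kainate receptors were led by Grik5, a high-affinity subunit that needs a partner such as Grik2 to form a channel. It averaged 54.9 ± 20.2 FPKM in THC_LPS, 67.8 ± 2.51 in THC_Ctrl, 68.3 ± 3.23 in Veh_LPS and 70.2 ± 0.751 in Veh_Ctrl (SD, n = 3 each). Grik2 and Grik3 averaged 14.9 and 12.8 FPKM over the 12 libraries, and Grik4 and Grik1 4.79 and 4.20 FPKM.

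The metabotropic receptors fall into 3 groups. In group I, which couples to phospholipase C, Grm5 averaged 15.7 FPKM over the 12 libraries. In group II, which lowers cyclic AMP, Grm2 averaged 11.3 ± 2.76 FPKM in THC_LPS, 13.9 ± 0.806 in THC_Ctrl, 12.1 ± 1.12 in Veh_LPS and 13.9 ± 0.791 in Veh_Ctrl, and Grm3, which astrocytes also express, averaged 9.93 FPKM. Grm4 led group III at 37.6 ± 15.7 FPKM in THC_LPS, 47.3 ± 3.29 in THC_Ctrl, 38.2 ± 0.569 in Veh_LPS and 39.1 ± 6.15 in Veh_Ctrl (SD, n = 3 each throughout). Grm7 and Grm8, the other presynaptic receptors of that group, averaged 10.3 and 2.57 FPKM.

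Of the GABA-A receptor genes, Gabrd, the delta subunit of receptors outside synapses, averaged 31.4 ± 5.90 FPKM in THC_LPS, 37.3 ± 2.32 in THC_Ctrl, 34.5 ± 3.43 in Veh_LPS and 36.3 ± 3.67 in Veh_Ctrl (SD, n = 3 each).

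Among alpha subunits, the mean was 37.6 FPKM for Gabra6, 25.2 for Gabra3, 24.7 for Gabra4, 16.2 for Gabra5 and 11.5 for Gabra2 over the 12 libraries. Gabrb2 averaged 26.0 FPKM and Gabrb1 7.49, but the files' length for Gabra2 and Gabrb1 is 2392 and 3089 bases, under 50% of their longest M21 transcripts of 5852 and 13737 bases. The rarer subunits Gabrq, Gabrr2 and Gabre averaged 1.33, 0.657 and 0.580 FPKM. Gabrr2, a rho subunit best known from the retina, averaged 0.805 ± 0.298 FPKM in THC_LPS, 0.693 ± 0.185 in THC_Ctrl, 0.646 ± 0.347 in Veh_LPS and 0.483 ± 0.0727 in Veh_Ctrl (SD, n = 3 each).

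The 4 members below the expression filter were Grm6, the receptor of retinal bipolar cells, Gabrp, Gabrr1 and Gabrr3. Grm6 had 2 reads in Veh_LPS replicate 3 and 0 elsewhere, and Gabrp had 3 reads in THC_LPS replicate 2 and 0 elsewhere. Gabrr1 had 1 to 19 reads a library and Gabrr3 0 to 6, and the highest of both were in Veh_LPS replicate 2, the library with the pituitary transcripts.

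The first comparison asked how the receptor genes of THC-pretreated brains stood 24 h after LPS. In THC_LPS against THC_Ctrl, the members with the smallest p-values were all higher in THC_LPS. They were Gabra2 and Gabrb1 of the GABA-A receptor, the glutamate receptors Grm3 and Grm5, and the AMPA subunits Gria2 and Gria3. The quasi-likelihood test of edgeR, adjusted by Benjamini-Hochberg over all genes, called 0 of the 41 members, where 0.11% of all genes were called. At an unadjusted p under 0.05 it had 9 members higher and 0 lower, beside 19.4% of all genes.

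Gabra2, a GABA-A subunit of limbic regions through which benzodiazepines relieve anxiety in mice, lay at 35.8, 32.0 and 51.5 CPM in THC_LPS, against 25.5, 16.6 and 19.7 CPM in THC_Ctrl. All 3 THC_LPS libraries were above all 3 THC_Ctrl libraries, and THC_LPS replicate 3 was the highest. The log2 fold change was 0.95 ± 0.18 (SE) with an adjusted p of 0.0656 by edgeR. With each library's trend on GC content removed, the values came closer together, at 37.4, 31.7 and 31.9 CPM in THC_LPS and 25.8, 18.5 and 20.5 CPM in THC_Ctrl. On that scale Gabra2 was called, with a log2 fold change of 0.64 ± 0.12 and an edgeR adjusted p of 0.0321. It was not called on that scale when THC_LPS replicate 3 was left out.

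Gabrb1, a beta subunit, lay at 27.5, 32.6 and 32.6 CPM in THC_LPS, against 21.5, 16.1 and 19.4 CPM in THC_Ctrl. The groups did not overlap, and here replicate 3 of THC_LPS was level with replicate 2. The log2 fold change was 0.70 ± 0.15 with an edgeR adjusted p of 0.0736, and 0.48 ± 0.14 with an adjusted p of 0.0891 after the GC trend was removed. The GC content used was that of the longest transcript, 38.4% for Gabra2 and 40.9% for Gabrb1. Their coding bases had 43.0% and 48.9%, and the effect of that choice was not tested.

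Grm3, which signals in neurons and astrocytes, lay at 41.0, 39.8 and 48.8 CPM in THC_LPS and 30.0, 26.2 and 30.0 CPM in THC_Ctrl. Again no library of the first group fell within the range of the second. Its log2 fold change was 0.59 ± 0.14 with an edgeR adjusted p of 0.0915. After removal of the GC trend it was 0.52 ± 0.11 with an adjusted p of 0.0404, and Grm3 was called. Gabra2 and Grm3 were the 2 members called on that scale, beside 0.662% of all genes. With the GC trend removed and THC_LPS replicate 3 also left out, 0 members were called, beside 27 of 17607 genes.

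Gria2, the subunit that limits calcium entry, lay at 330, 407 and 598 CPM in THC_LPS and 308, 208 and 269 CPM in THC_Ctrl. The groups were separate, with THC_LPS replicate 1 close to the highest THC_Ctrl library and replicate 3 far above the rest. The log2 fold change was 0.77 ± 0.21 with an edgeR adjusted p of 0.128, and 0.41 ± 0.12 with an adjusted p of 0.0935 after the GC trend was removed, where replicate 3 lay at 352 CPM.

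Gria3, a calcium-permeable AMPA subunit, lay at 127, 131 and 209 CPM in THC_LPS and 112, 79.5 and 93.3 CPM in THC_Ctrl, with a log2 fold change of 0.71 ± 0.20 and an edgeR adjusted p of 0.135. Grm5, a postsynaptic receptor that drives endocannabinoid release, lay at 109, 138 and 176 CPM in THC_LPS and 97.3, 65.9 and 87.9 CPM in THC_Ctrl, with 0.76 ± 0.21 and an adjusted p of 0.132. In both genes THC_LPS replicate 3 was the highest of the 12 libraries.

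**Figure D2:**
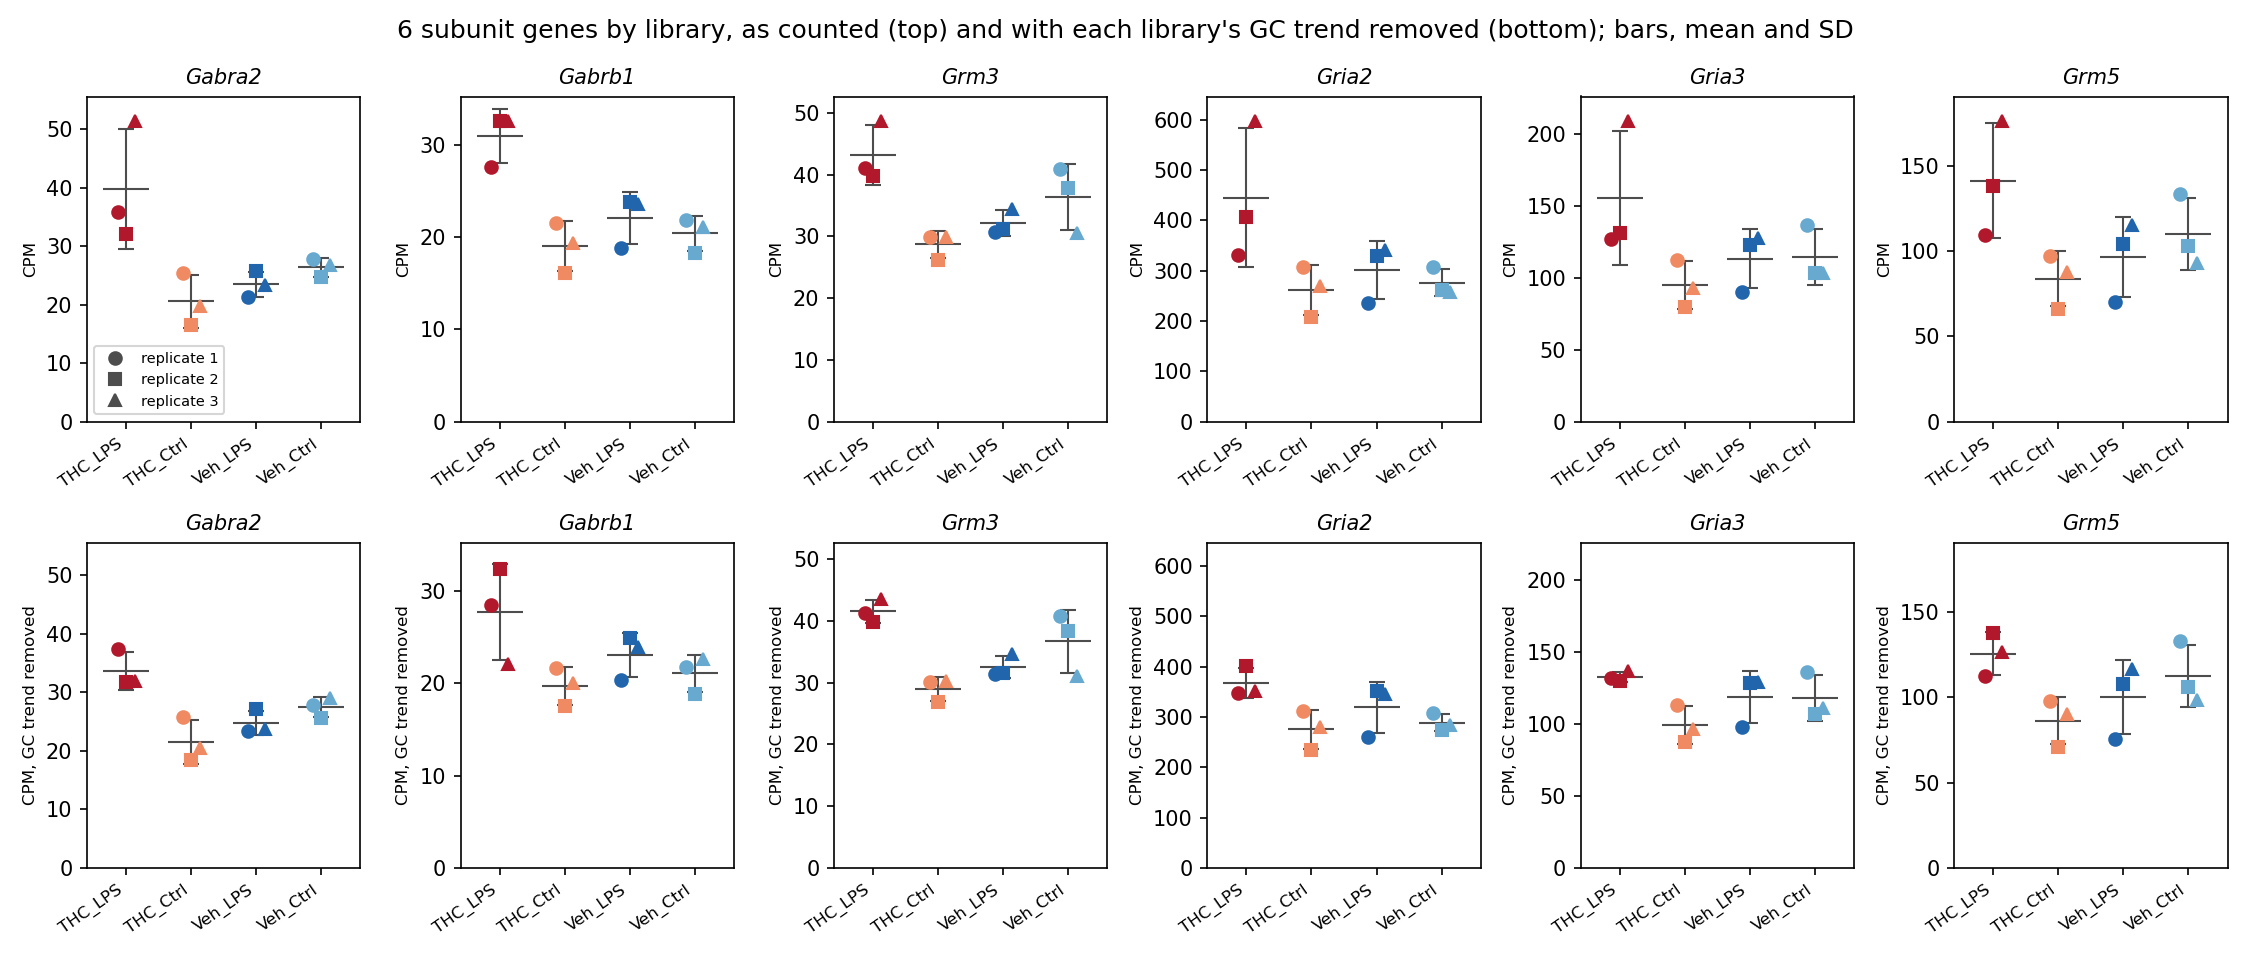
CPM of 6 subunit genes in each library as counted (top) and with each library's GC trend removed (bottom), with mean and SD per group (n = 3); marker shape gives the replicate number. In the top row THC_LPS replicate 3 stands above replicates 1 and 2 in all but Gabrb1, and in the bottom row Gria2 of THC_LPS replicate 3 is at 352 CPM instead of 598.

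How many of these members were called depended on the tool. DESeq2 called 6 members, 6 higher and 0 lower, where 2.82% of all genes were called: Gabra2, Gabrb1, Grm3, Gria2, Gria3 and Grm5. limma-voom with sample weights called those 6 and Grin2b, all higher, where 5.75% of all genes were called. In the authors' deposited table, 4 members had an adjusted p under 0.05, beside 0.857% of all genes given there: Gabra2 at 0.0117, Gabrb1 at 0.0253, Grm3 at 0.0447 and Grm5 at 0.0456. The comparison behind that column is not named in its header; its values ranked genes as DESeq2 did when only THC_LPS and THC_Ctrl were fitted (Spearman correlation 1.00). Without THC_LPS replicate 3, edgeR called 0 members where 0.125% of all genes were called, and the log2 fold change was 0.75 ± 0.15 for Gabra2, 0.70 ± 0.15 for Gabrb1, 0.53 ± 0.12 for Grm3, 0.53 ± 0.18 for Gria2, 0.47 ± 0.17 for Gria3 and 0.60 ± 0.24 for Grm5.

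The CPM of the groups did not overlap for 8 members higher and 2 lower in THC_LPS, 24.4% of the 41, beside 23.3% of all genes (9.83% higher and 13.5% lower). The higher ones were the 6 above with Grin2b and Grin3a. Grin2b, the NMDA subunit of young and extrasynaptic receptors, lay at 377, 490 and 518 CPM in THC_LPS and 361, 291 and 291 CPM in THC_Ctrl. The 2 lower ones were Grm2, at 59.1, 60.7 and 38.1 CPM in THC_LPS and 61.2, 67.9 and 67.5 CPM in THC_Ctrl, and Gabbr1, at 869, 863 and 778 CPM in THC_LPS and 956, 1021 and 922 CPM in THC_Ctrl. The edgeR adjusted p was 0.15 for Grin2b, 0.276 for Grm2 and 0.354 for Gabbr1.

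By family, all 4 AMPA genes, all 3 beta and all 3 gamma genes had a positive log2 fold change in THC_LPS against THC_Ctrl, with family medians of 0.49, 0.37 and 0.25. The 7 NMDA genes were mixed, 3 positive and 4 negative with a median of -0.24, and so were the 5 kainate genes, 2 positive and 3 negative with a median of -0.06. With the GC trend removed, the AMPA and beta genes were still all positive, with medians of 0.25 and 0.12, but 4 of the 7 NMDA genes were positive with a median of 0.02, and 1 of the 3 gamma genes with a median of -0.13. The medians without THC_LPS replicate 3 were 0.31 for AMPA, 0.16 for beta, 0.09 for NMDA, -0.07 for gamma and 0.03 for kainate genes, so the direction of the last 3 families turned. Over the 41 members, 29 were positive and the median was 0.18, against 49.2% positive and a median of -0.01 over all genes. That median was 0.07 with the GC trend removed, 0.10 without THC_LPS replicate 3, and -0.04 with GC and length trends removed together, where the direction turned. The 9 cerebellar markers summed to 995, 1154 and 1034 CPM in THC_LPS and 1264, 1258 and 1374 CPM in THC_Ctrl. Of these 9, 0 had a higher mean in THC_LPS. The 7 striatal markers summed to 597, 605 and 614 CPM in THC_LPS and 616, 695 and 660 CPM in THC_Ctrl. The 8 forebrain excitatory neuron markers summed to 435, 482 and 517 CPM in THC_LPS and 429, 444 and 419 CPM in THC_Ctrl. Of these 8, 6 had a higher mean in THC_LPS, against 0 of 8 in Veh_LPS over Veh_Ctrl. The part of these lists in the results was not tested. In whole tissue, more of the cells that express a gene and more RNA per cell cannot be told apart.

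**Figure D3:**
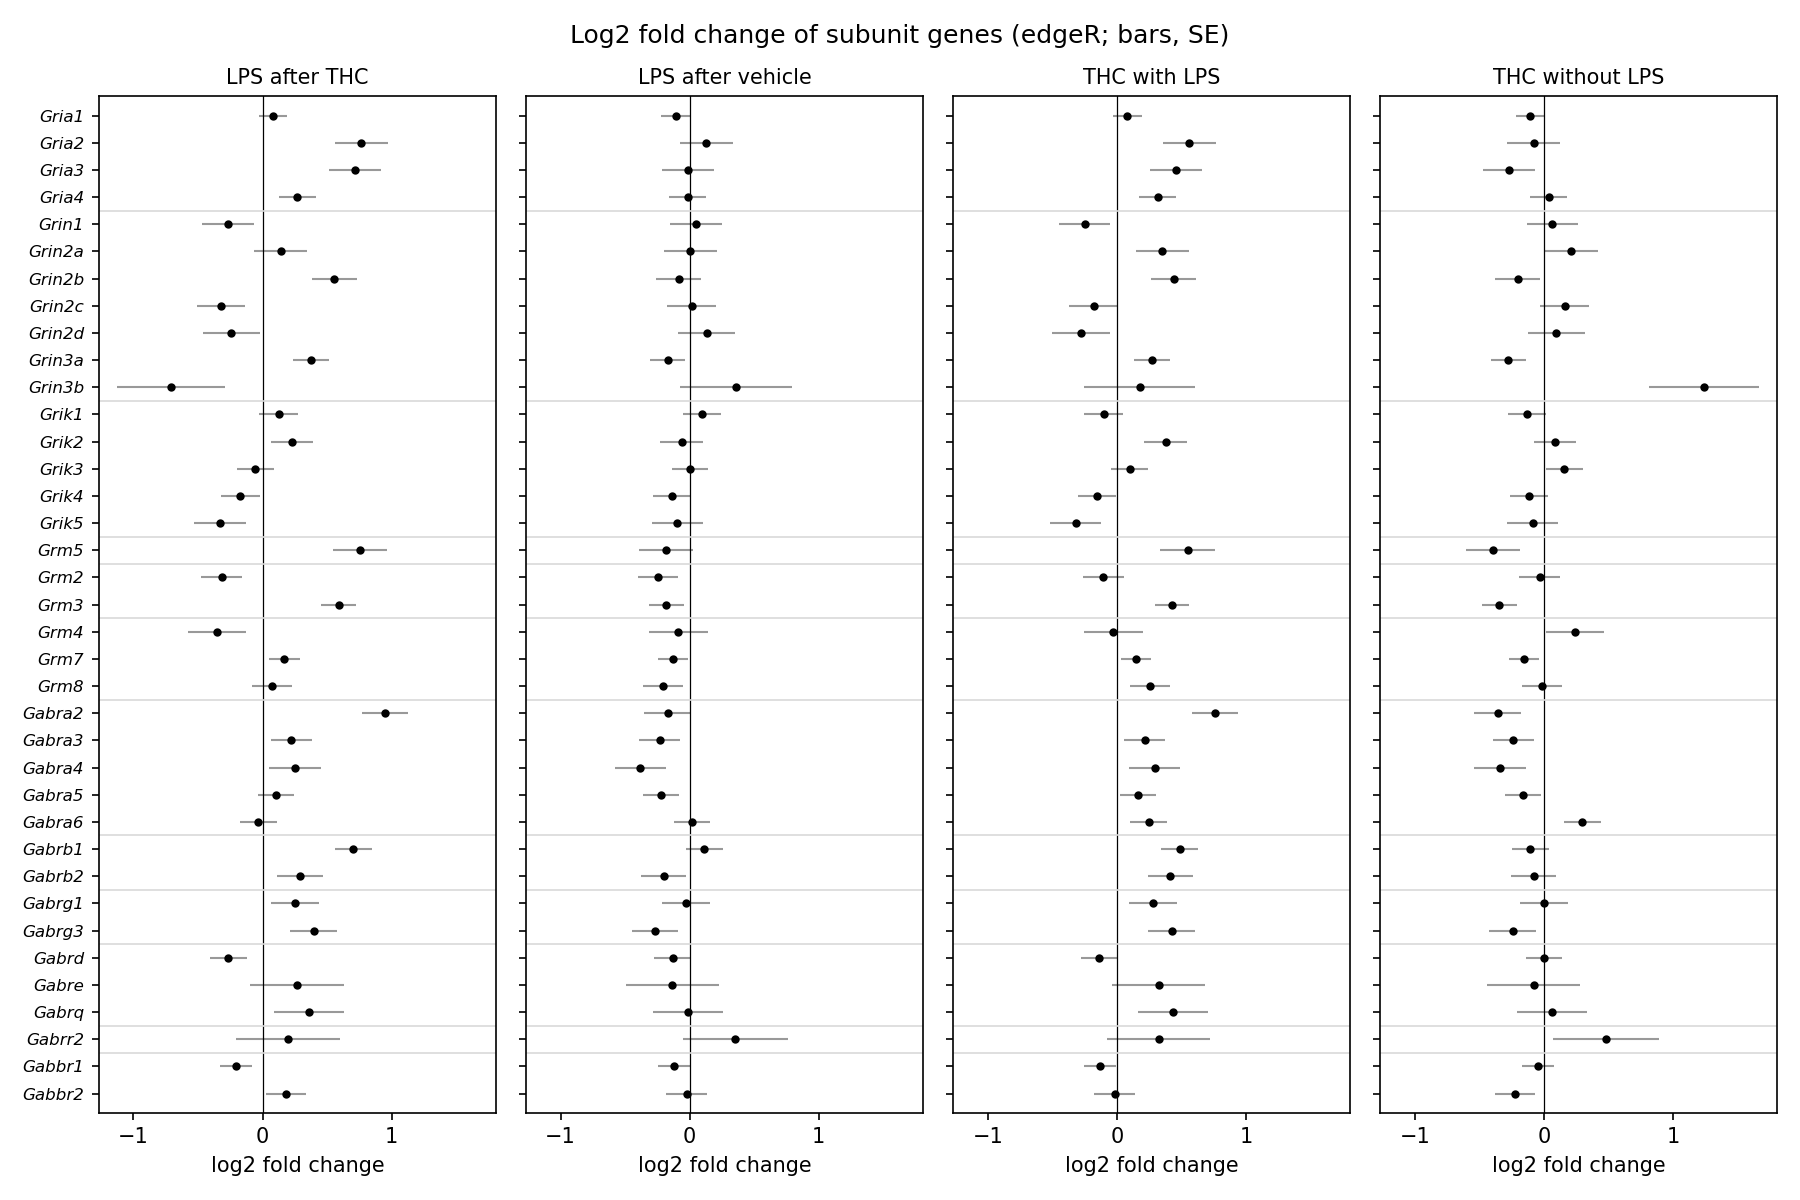
Log2 fold change of 37 tested subunit genes by edgeR with its SE (bars), for LPS after THC (THC_LPS over THC_Ctrl), LPS after vehicle (Veh_LPS over Veh_Ctrl), THC with LPS (THC_LPS over Veh_LPS) and THC without LPS (THC_Ctrl over Veh_Ctrl). Gabra2 is the farthest right for LPS after THC at 0.95 and for THC with LPS at 0.76, and Grin3b for THC without LPS at 1.24.

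Base composition ran along the members' values in THC_LPS replicate 3. Of the 41 members, 24 had their highest and 10 their lowest value of the 12 libraries there, beside 28.6% and 29.6% of all genes. Those highest there included Gabra2, Gria2, Gria3, Grm5, Gabra4, Gabrb2, Gabrg1 and Gabrg3, and those lowest there included Grin1, Grin2c, Grin2d, Grik5, Grm2, Grm4, Gabrd and both GABA-B genes. The Spearman correlation of the members' deviation with GC content was -0.86 in that library and -0.25 to 0.59 in the others, over 41 genes that are not independent replicates. After the GC trend was removed it was -0.07 in that library.

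Gria2 and Grik5, whose windows printed above had 38.9% and 61.1% G and C, lay near opposite ends of these deviations. The Gabra2 window had 45.6%, against 38.4% over its longest transcript. Relative to its mean over the 12 libraries, Gria2 was 0.95 higher and Gabra2 0.95 higher on the log2 scale in THC_LPS replicate 3, while Grik5 was at -1.02 and Grin2d at -1.02. Grik5 lay at 242, 259 and 121 CPM in THC_LPS and 263, 273 and 245 CPM in THC_Ctrl as counted. With the GC trend removed, it lay at 228, 256 and 223 CPM in THC_LPS and 258, 243 and 232 CPM in THC_Ctrl, and the groups overlapped. Grin1 lay at 339, 396 and 181 CPM in THC_LPS and 362, 403 and 337 CPM in THC_Ctrl as counted, and replicate 3 of THC_LPS was at 298 CPM after removal. The part of GC content in the other differences was not tested beyond these values.

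**Figure D4:**
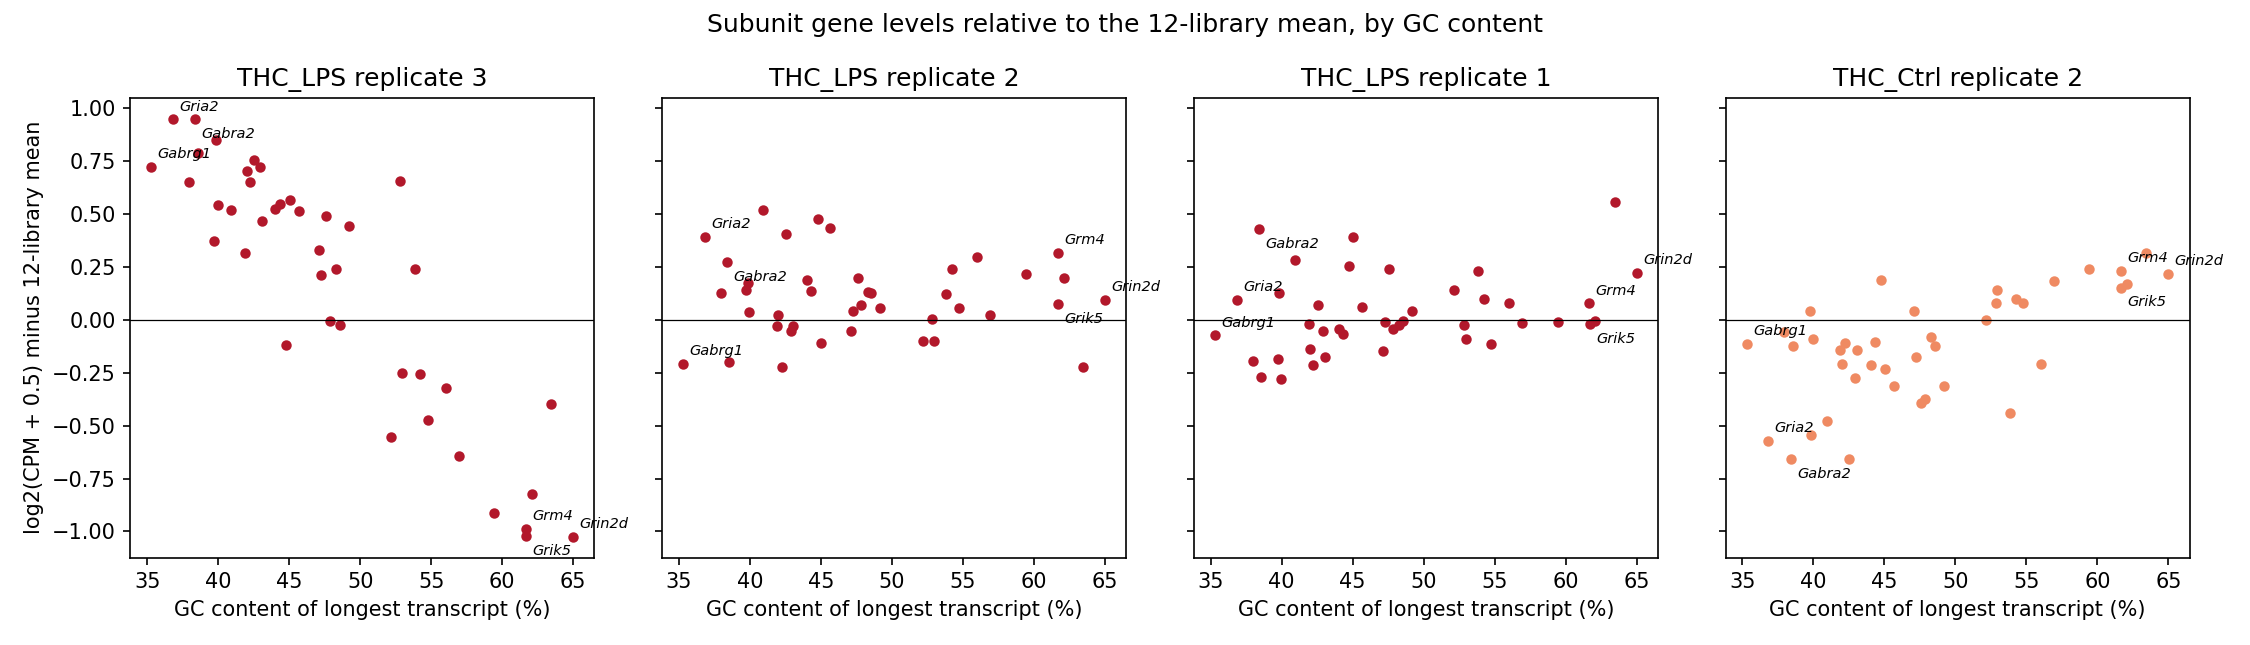
Deviation of log2(CPM + 0.5) from the 12-library mean against the GC content of the longest transcript for the 41 tested members, in the 3 THC_LPS libraries and in THC_Ctrl replicate 2. In THC_LPS replicate 3 the points fall from 0.95 for Gria2 to -1.02 for Grin2d; the other panels show no such fall.

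Gabra2 and Gabrb1 lie in a cluster of GABA-A genes on chromosome 5 with Gabrg1 and Gabra4, at chr5:70961057-71095849 (-) for Gabra2 and chr5:71699932-72138389 (+) for Gabrb1 in the files' mm10 coordinates. Of their neighbours, Gabrg1 had a log2 fold change of 0.25 and Gabra4 of 0.25 in THC_LPS against THC_Ctrl, and their groups overlapped. Both were highest in THC_LPS replicate 3, at 54.5 and 157 CPM. With the GC trend removed, Gabrg1 averaged 30.5 CPM in THC_LPS and 34.0 CPM in THC_Ctrl, and Gabra4 95.4 and 95.9 CPM. The promoters of Gabra2 and Gabrb1 are printed because these 2 genes had the smallest p-values of the members and share a cluster. They are RefSeq sequences on GRCm38.p6, 250 bases before to 50 after the start, at chr5:71095800-71096099 (-) for Gabra2 and at chr5:71657671-71657970 (+) and chr5:71699682-71699981 (+) for the starts of Gabrb1; capitals mark a GAS match.
Gabra2 promoter: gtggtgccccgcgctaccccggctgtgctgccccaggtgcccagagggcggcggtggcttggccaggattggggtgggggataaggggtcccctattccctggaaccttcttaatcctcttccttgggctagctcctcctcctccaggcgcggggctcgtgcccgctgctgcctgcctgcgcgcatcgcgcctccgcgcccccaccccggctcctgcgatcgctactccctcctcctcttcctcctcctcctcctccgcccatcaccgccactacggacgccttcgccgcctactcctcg
Gabrb1 upstream promoter: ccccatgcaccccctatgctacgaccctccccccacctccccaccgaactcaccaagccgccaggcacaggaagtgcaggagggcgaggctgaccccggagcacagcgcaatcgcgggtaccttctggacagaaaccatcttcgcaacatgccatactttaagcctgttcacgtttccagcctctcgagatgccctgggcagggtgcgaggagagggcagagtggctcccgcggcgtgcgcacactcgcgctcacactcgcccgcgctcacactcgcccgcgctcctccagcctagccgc
Gabrb1 downstream promoter: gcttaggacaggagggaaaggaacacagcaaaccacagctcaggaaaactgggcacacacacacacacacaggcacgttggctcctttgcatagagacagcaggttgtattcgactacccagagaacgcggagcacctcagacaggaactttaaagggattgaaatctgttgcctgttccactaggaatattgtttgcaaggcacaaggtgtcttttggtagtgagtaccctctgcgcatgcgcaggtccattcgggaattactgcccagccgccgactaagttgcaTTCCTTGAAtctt
Promoters were searched on both strands for 4 motifs, each promoter counted once per motif and matches of different motifs free to overlap. The interferon-activated GAS motif TTCNNNGAA was found in the downstream Gabrb1 promoter and in 3 of the 39 member promoters (32 genes matched), beside 8.30% of 32851 promoters. The NF-kB motif, GGGA and CC with any 4 bases between, was in 11 of the 39, beside 20.7% of all. The cyclic AMP motif TGACGTCA was in 0, beside 1.79% of all, and the TATA motif TATAAA in 4, beside 13.6% of all. None of the 4 was in the Gabra2 window.

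The same question in vehicle-pretreated brains gave smaller differences, mostly the other way. In Veh_LPS against Veh_Ctrl edgeR called 0 of the 41 members, beside 0.622% of all genes, and had 0 members at an unadjusted p under 0.05, beside 7.45% of all genes. Without THC_LPS replicate 3, which enters through the shared spread, 4 members had such a p, all lower, beside 2394 of 17607 genes. Gabra4, Gabra5 and Grm2, all lower in Veh_LPS, were among the 4 members with the smallest p-values. Of the 41 members 29 had a negative log2 fold change, with a median of -0.10, against 43.8% positive and a median of -0.04 over all genes.

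Gabra4, which forms extrasynaptic receptors with delta, lay at 89.7, 85.7 and 93.2 CPM in Veh_LPS, against 135, 122.7 and 92.4 CPM in Veh_Ctrl. Veh_Ctrl replicate 3 lay within the Veh_LPS range, so the groups overlapped, and the log2 fold change was -0.38 ± 0.20 with an edgeR adjusted p of 0.711.

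Gabra5, a hippocampal alpha subunit, lay at 42.5, 36.8 and 40.1 CPM in Veh_LPS, against 49.2, 49.4 and 40.9 CPM in Veh_Ctrl, with a log2 fold change of -0.22 ± 0.14 and an edgeR adjusted p of 0.769. Grm2, a presynaptic receptor, lay at 64.1, 52.9 and 52.8 CPM in Veh_LPS, against 66.3, 71.9 and 63.0 CPM in Veh_Ctrl, with -0.25 ± 0.16 and an adjusted p of 0.771. In Gabra4 and Gabra5 the difference rested on Veh_Ctrl replicates 1 and 2. The 8 forebrain excitatory neuron markers showed the same libraries apart, with sums of 435, 436 and 457 CPM in Veh_LPS and 580, 514 and 426 CPM in Veh_Ctrl, and 0 of the 8 had a higher mean in Veh_LPS. The 7 striatal markers, with 0 of 7 higher in Veh_LPS, summed to 745, 609 and 621 CPM in Veh_LPS and 817, 820 and 593 CPM in Veh_Ctrl. The 7 caudal markers, all higher in Veh_LPS, summed to 71.9, 69.5 and 70.9 CPM in Veh_LPS and 12.01, 11.2 and 50.6 CPM in Veh_Ctrl, and 8 microglial markers to 346, 296 and 323 CPM in Veh_LPS and 236, 258 and 242 CPM in Veh_Ctrl. The part of these markers in the result was not tested.

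The groups did not overlap for 0 members higher and 5 lower in Veh_LPS, beside 16% of all genes (6.96% higher and 9.07% lower). Grin3a, Grik4, Grm8 and Gabrg3 were among the 5. DESeq2 called 0 members, beside 1.26% of all genes, and limma-voom with sample weights called 3 members lower, Gabra4 and Grm2 among them, beside 10.8% of all genes. All 3 gamma genes had a negative log2 fold change, of -0.03 to -0.27, as had 5 of the 6 alpha genes, Gabra6 being the exception at 0.02.

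Whether LPS acted differently after THC was asked by the interaction of both treatments. edgeR called 0 of the 41 members, beside 0% of all genes, and had 11 at an unadjusted p under 0.05, 11 higher and 0 lower, beside 6.78% of all genes. DESeq2 also called 0 members, beside 0.00581% of all genes, and limma-voom 0, beside 0.0349%. The smallest p-values were those of Gabra2, with an interaction of 1.12 ± 0.26 on the log2 scale, Grm3 with 0.77 ± 0.19, Grm5 with 0.94 ± 0.30 and Gabrb1 with 0.59 ± 0.21, all with an edgeR adjusted p of 0.71. With the GC trend removed Gabrb1 had 0.35 ± 0.19.

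Behind the interaction of Gabra2 stood 21.3, 25.7 and 23.4 CPM in Veh_LPS, against 27.8, 24.7 and 26.7 CPM in Veh_Ctrl, besides the THC values above. Grm3 lay at 30.6, 31.2 and 34.5 CPM in Veh_LPS and 40.9, 37.9 and 30.5 CPM in Veh_Ctrl. Grm5 lay at 70.4, 104 and 115 CPM in Veh_LPS and 134, 103 and 92.9 CPM in Veh_Ctrl. In all 3 genes the vehicle groups overlapped. The median interaction over the 41 members was 0.28, against 0.00 over all genes, and 0.14 with the GC trend removed. With GC and length trends removed together it was 0.08. Without THC_LPS replicate 3 the median was 0.17. In that fit 7 members, all higher, had an unadjusted p under 0.05, beside 1099 of 17607 genes.

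THC_LPS was next set against Veh_LPS, to ask what THC pretreatment left in brains that had met LPS. edgeR called 0 of the 41 members, beside 0% of all genes. At an unadjusted p under 0.05 it had 12 members higher and 0 lower, beside 10.3% of all genes. DESeq2 and limma-voom with sample weights each called 0 members, beside 0.0116% of all genes each. The smallest p-values were again those of Gabra2, with a log2 fold change of 0.76 ± 0.18, Gabrb1 with 0.49 ± 0.15, Grm3 with 0.43 ± 0.13 and Gria2 with 0.56 ± 0.21, all with an edgeR adjusted p of 0.478. With the GC trend removed the log2 fold change was 0.44 ± 0.12 for Gabra2, 0.26 ± 0.14 for Gabrb1 and 0.20 ± 0.12 for Gria2, and Gria2 had 0.30 ± 0.18 without THC_LPS replicate 3. This comparison shares the THC_LPS libraries with that of THC_LPS against THC_Ctrl.

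Gabrb1 lay at 27.5, 32.6 and 32.6 CPM in THC_LPS and 18.8, 23.8 and 23.6 CPM in Veh_LPS. Gria2 lay at 330, 407 and 598 CPM in THC_LPS and 235, 330 and 340 CPM in Veh_LPS. The groups overlapped for Gria2 and were separate for Gabra2, Gabrb1 and Grm3, and also for Grin3a, Grm7, Grm8 and Gabrg3. In all there were 8 members higher and 0 lower without overlap, beside 11.7% of all genes (5.61% higher and 6.12% lower). Over the 41 members 30 log2 fold changes were positive with a median of 0.27, against 49.5% positive and a median of 0.00 over all genes. With the GC trend removed the median was 0.12, and 6 members had an unadjusted edgeR p under 0.05, beside 1205 of 17208 genes. With GC and length trends removed together the median was 0.06, with 2 such members, beside 1162 of 17208 genes. Without THC_LPS replicate 3 the median was 0.12 with 34 positive. In that fit 5 members, all higher, had an unadjusted p under 0.05, beside 853 of 17607 genes. The 4 olfactory bulb markers, all higher in THC_LPS, summed to 58.1, 66.98 and 63.9 CPM in THC_LPS and 42.4, 28.3 and 23.6 CPM in Veh_LPS. The 6 choroid plexus markers, with 0 of 6 higher in THC_LPS, summed to 602, 497 and 327 CPM in THC_LPS and 626, 646 and 642 CPM in Veh_LPS; the part of both lists in the result was not tested.

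THC without LPS asked what adolescent THC left in otherwise untreated adult brains, in THC_Ctrl against Veh_Ctrl. edgeR called 0 of the 41 members, beside 0% of all genes, and had 1 higher (Grin3b) and 1 lower (Grm3) at an unadjusted p under 0.05, beside 3.62% of all genes. Without THC_LPS replicate 3, which is in neither group but enters the shared spread, these counts were 3 higher and 6 lower. In that fit 1347 of 17607 genes had such a p. DESeq2 called 0, beside 0.0814% of all genes, and limma-voom with sample weights 0, beside 0.622%. The groups did not overlap for 3 members higher (Grin3b, Grm4 and Gabra6) and 3 lower (Grin3a, Grik4 and Grm3), beside 12.8% of all genes (5.96% higher and 6.85% lower). Of the 41 members, 28 had a negative log2 fold change, and the median was -0.08. Over all genes 47.2% were positive and the median was -0.01.

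Grin3b, an NMDA subunit of spinal cord and brainstem motor neurons, had few reads, 55, 41 and 62 in THC_Ctrl and 18, 19 and 28 in Veh_Ctrl. In CPM it lay at 2.22, 1.68 and 2.39 in THC_Ctrl and 0.707, 0.787 and 1.16 in Veh_Ctrl, and the log2 fold change was 1.24 ± 0.43 with an edgeR adjusted p of 1.00. Of its exon bases 32.1% overlap Tmem259 on the other strand, and the sources used here do not say whether counting used strand. The 7 caudal markers, Hox genes and Slc6a5 of the glycine neurons of brainstem and cord, summed to 61.2, 72.5 and 18.7 CPM in THC_Ctrl and 12.01, 11.2 and 50.6 CPM in Veh_Ctrl, and 6 of the 7 had a higher mean in THC_Ctrl; their part in the result was not tested.

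Grm3 lay at 30.0, 26.2 and 30.0 CPM in THC_Ctrl and 40.9, 37.9 and 30.5 CPM in Veh_Ctrl, with a log2 fold change of -0.34 ± 0.13 and an edgeR adjusted p of 1.00. Veh_Ctrl replicate 3 was just above the highest THC_Ctrl library. Grin3a, an NMDA subunit that lowers calcium entry, lay at 45.3, 35.8 and 37.0 CPM in THC_Ctrl and 48.6, 46.4 and 47.9 CPM in Veh_Ctrl, with -0.27 ± 0.14.

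Gabra6, which is nearly confined to granule cells of the cerebellum, lay at 102, 94.4 and 111 CPM in THC_Ctrl and 78.0, 90.5 and 81.5 CPM in Veh_Ctrl. All 3 THC_Ctrl libraries were higher, and the log2 fold change was 0.30 ± 0.14 with an edgeR adjusted p of 1.00. Grm4, also a granule cell receptor, lay at 205, 211 and 228 CPM in THC_Ctrl and 154, 187 and 205 CPM in Veh_Ctrl, with 0.24. Grin2c, the NMDA subunit of mature granule cells, lay at 192, 195 and 200 CPM in THC_Ctrl and 156, 171 and 198 CPM in Veh_Ctrl, and overlapped. The 9 cerebellar markers, none of them a member, summed to 1264, 1258 and 1374 CPM in THC_Ctrl and 987, 1146 and 1173 CPM in Veh_Ctrl. All 9 had a higher mean in THC_Ctrl, as had Gabra6, Grm4 and Grin2c. Gabrd, plotted beside them, did not differ, with a mean of 101 CPM in both THC_Ctrl and Veh_Ctrl. The summed level of the 4 olfactory bulb markers was also higher in all THC_Ctrl libraries than in Veh_Ctrl. That of the 5 thalamic markers and of the 2 oligodendrocyte precursor markers was lower. The 8 forebrain excitatory neuron markers summed to 429, 444 and 419 CPM in THC_Ctrl and 580, 514 and 426 CPM in Veh_Ctrl. Of these 8, 0 had a higher mean in THC_Ctrl, as had 0 of the 7 striatal and 1 of the 10 pan-neuronal markers. The part of these lists in the result was not tested.

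**Figure D5:**
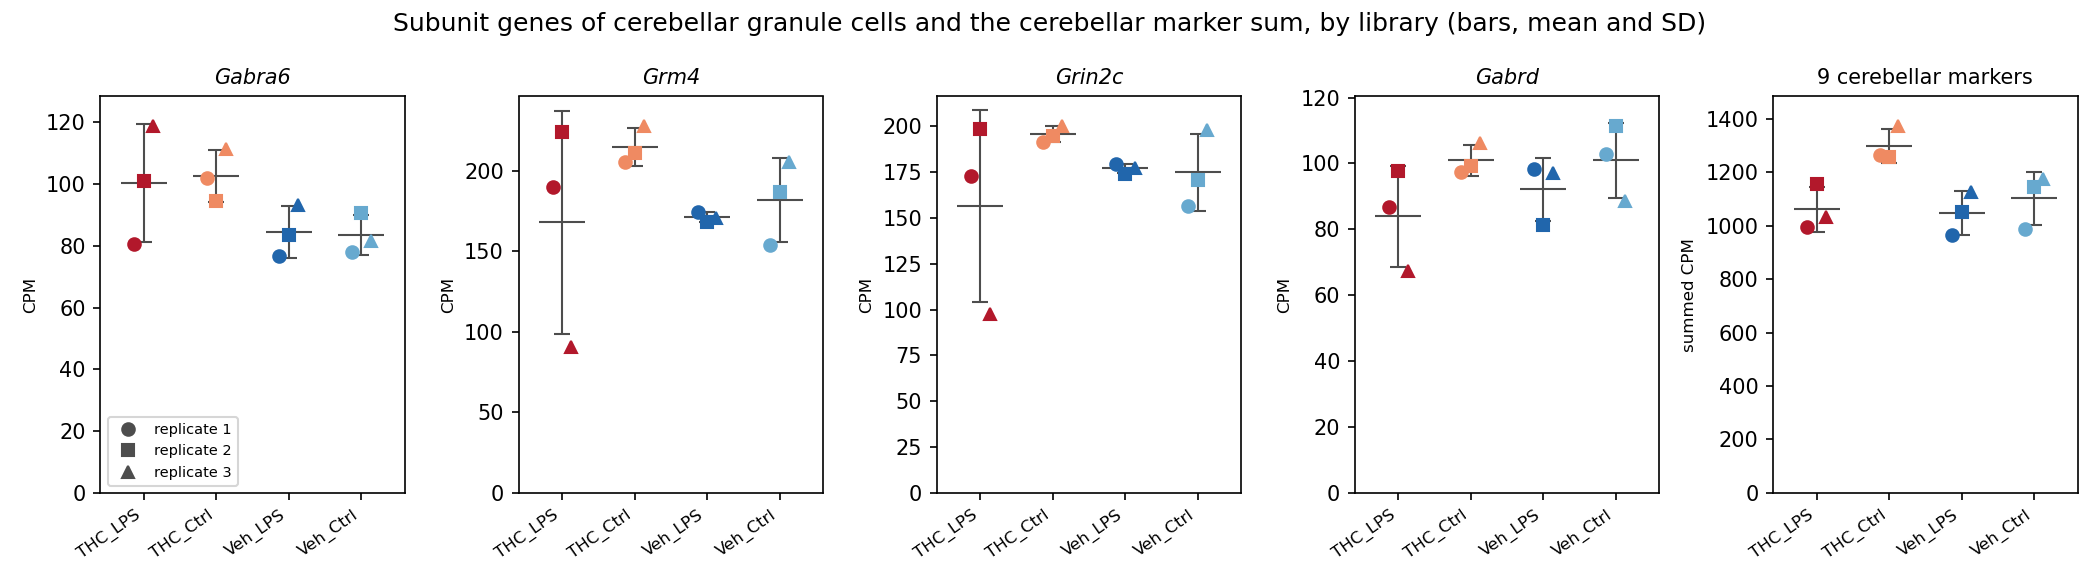
CPM of Gabra6, Grm4, Grin2c and Gabrd and the summed CPM of 9 cerebellar markers in each library, with mean and SD per group (n = 3). The marker sum is 1258 to 1374 CPM in THC_Ctrl and 965 to 1173 CPM in the other 9 libraries; Grm4, Grin2c and Gabrd are lowest in THC_LPS replicate 3.

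Averaged over pretreatment, the 6 LPS libraries were set against the 6 saline libraries. edgeR called 0 of the 41 members, beside 1.52% of all genes, and had 5 higher and 1 lower at an unadjusted p under 0.05, beside 18.6% of all genes. DESeq2 called Gabrb1 and Gria2 higher, beside 4.17% of all genes. limma-voom with sample weights called 9 members, beside 23.7% of all genes, among which Gabrb1, Gria2, Gabra2, Gria3 and Grin2b were higher and Grm2, Gabra4 and Gabbr1 lower. No member had groups without overlap, beside 1.95% of all genes (1.14% higher and 0.808% lower).

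Gabrb1 came nearest to the threshold, with a log2 fold change of 0.41 ± 0.10 and an edgeR adjusted p of 0.0626. It averaged 26.5 CPM in LPS libraries and 19.7 CPM in saline libraries, and both vehicle groups entered with overlapping values, 18.8, 23.8 and 23.6 CPM in Veh_LPS and 21.8, 18.3 and 21.1 CPM in Veh_Ctrl. Gria2 followed with 0.45 ± 0.15 and an adjusted p of 0.135, Gabra2 with 0.39 ± 0.13 and 0.136, and Grm2 with -0.28 ± 0.11 and 0.193. In the fit that left out THC_LPS replicate 3, edgeR called Gabrb1, at 0.42 ± 0.10 with an adjusted p of 0.0286, beside 3.06% of all genes called, and Grm2 had -0.15 ± 0.07. With the GC trend removed edgeR called 0 members, beside 907 of 17208 genes, and Gria2 had 0.28 ± 0.08 and Gabra2 0.24 ± 0.09. On that scale Gabrb1 averaged 27.7 CPM in THC_LPS, 23.0 in Veh_LPS, 19.7 in THC_Ctrl and 21.1 in Veh_Ctrl. The log2 fold change of Gabrb1 ranged from 0.31 to 0.46 over 23 alternative fits.

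Averaged over LPS, the 6 THC libraries were set against the 6 vehicle libraries. edgeR called 0 of the 41 members, beside 0% of all genes, and had Gabra6 and Grin3b higher at an unadjusted p under 0.05, beside 6.1% of all genes. Without THC_LPS replicate 3 there were 5 higher and 1 lower, beside 1200 of 17607 genes. DESeq2 called 0, beside 0.0639% of all genes, and limma-voom 0, beside 0.116%. Gabra6 averaged 101 CPM in THC libraries and 83.9 CPM in vehicle libraries, with a log2 fold change of 0.27 ± 0.10. That value ranged from 0.14 to 0.34 over 23 alternative fits. With the GC trend removed, Gabra6 averaged 87.1 CPM in THC_LPS and 88.6 CPM in Veh_LPS, but 107 CPM in THC_Ctrl and 86.5 CPM in Veh_Ctrl. The cerebellar marker sum was also highest in THC_Ctrl, and its part in the result was not tested. Grin3b had a log2 fold change of 0.71 ± 0.30, Grik2 of 0.23 ± 0.12 and Grin2a of 0.28 ± 0.15, all with an edgeR adjusted p of 0.776. Grik2 was highest in THC_LPS replicate 3, at 111 CPM as counted and 67.7 CPM with the GC trend removed. Its log2 fold change ranged from 0.05 to 0.32 over 23 alternative fits. No member had groups without overlap, beside 0.238% of all genes (0.134% higher and 0.105% lower).

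Spread between libraries was wide for some members. The ratio of the highest to the lowest library in CPM was above 2 for 18 of the 41. It was 5.01 for Grin3b, 3.70 for Gabrr2, 3.10 for Gabra2 and 3.03 for Gabre, of which Grin3b, Gabrr2 and Gabre had the fewest reads of the tested members. It ran from 2.02 to 2.87 for others, among them Gria2, Gria3, Grm5, Gabrq, Grm4, Grin2d, Grik5, Grin1, Gabrb2, Grin2c, Grin2b, Gabrb1 and Gabrg3. With THC_LPS replicate 3 left out the ratio was above 2 for 7 of the 41, and it was 1.16 for Grik5, 1.20 for Grin1, 1.28 for Grin2d and 1.48 for Grm4. The steadiest of the tested members over the 12 libraries was Gria1 at 1.22. Gabre, a rarely used subunit on the X chromosome, lay at 2.91, 2.66 and 2.93 CPM in THC_LPS, 2.75, 1.64 and 2.65 in THC_Ctrl, 2.42, 3.30 and 1.19 in Veh_LPS and 1.61, 2.24 and 3.61 in Veh_Ctrl.

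Proteins that work with these receptors were looked at next. All 56 listed genes for auxiliary subunits, scaffolds, and transmitter synthesis and transport were tested, and edgeR called 0 of them in each of the 7 comparisons. For LPS after THC it had 8 higher and 5 lower of the 56 at an unadjusted p under 0.05, beside 19.4% of all genes, and their median log2 fold change was 0.03. Cacng2 (stargazin), which carries AMPA receptors to the synapse, lay at 18.5, 27.6 and 17.7 CPM in THC_LPS and 14.2, 6.404 and 10.7 CPM in THC_Ctrl. Its log2 fold change was 1.03 ± 0.30 with an edgeR adjusted p of 0.136, and DESeq2 called it at an adjusted p of 0.0291, the 1 of the 56 it called there, beside 2.82% of all genes.

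Slc17a7, the vesicular glutamate transporter of cortical and cerebellar granule neurons, lay at 1063, 1131 and 684 CPM in THC_LPS and 1352, 1607 and 1407 CPM in THC_Ctrl. Its log2 fold change was -0.60 ± 0.18 with an edgeR adjusted p of 0.149. Averaged over pretreatment, Cacng2 had 0.82 ± 0.21 and an adjusted p of 0.0622 for LPS, and Slc17a7 -0.47 ± 0.13 and 0.093, and DESeq2 called both. THC_LPS replicate 3 was the lowest library for Slc17a7, and the cerebellar markers given above were also lower in all THC_LPS libraries than in THC_Ctrl; their part in the result was not tested.

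In the other comparisons no listed gene was called by edgeR or DESeq2. For LPS after vehicle, where edgeR had 0 higher and 5 lower at an unadjusted p under 0.05, beside 7.45% of all genes, the smallest p-values were those of Cnih3 with a log2 fold change of -0.43 ± 0.16 and Neto1 with -0.32 ± 0.13, an AMPA and a kainate auxiliary subunit. For THC with LPS (8 higher, 0 lower, beside 10.3% of all genes) they were those of Shisa9 with 0.49 ± 0.13 and Slc17a8 with 0.74 ± 0.24, and for the interaction (7 higher, 0 lower, beside 6.78%) those of Neto1 with 0.65 ± 0.18 and Shisa9 with 0.59 ± 0.18. For THC without LPS (0 higher, 3 lower, beside 3.62%) they were those of Slc1a2, the main glutamate transporter of astrocytes, with -0.46 ± 0.16 and Grid1 with -0.30 ± 0.14, and for THC averaged over LPS (4 higher, 2 lower, beside 6.1%) those of Slc17a8 with 0.40 ± 0.17 and Cacng5 with 0.32 ± 0.13. The edgeR adjusted p of these 10 values was 0.478 or more.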

How the data were processed

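RNA was isolated with TRIzol and a kit column, as the labels' protocols say. STAR 2.5, HTSeq, DESeq2 and mm10 are named in the submitters' processing notes, with no settings; the sources used here do not give strandedness or annotation. Per the file headers, the authors deposited a read count and an FPKM for each gene; the FPKM matched reads over length and library total. Of p-values, an adjusted one was deposited in 1 table. The tables were joined by gene ID, with an absent gene taken as 0 reads. The deposited normalized column was not used.

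EdgeR 4.0.16 (R 4.3.3) was fitted to all 12 libraries with group means, TMM scaling, its default filter (17208 genes), robust dispersions and the quasi-likelihood test, adjusted by Benjamini-Hochberg over all genes. Calls are at an adjusted p under 0.05. The SE is the log2 fold change divided by the square root of the F statistic, without sign, and is approximate. GC and length trends were loess fits (span 0.5) per library, with GC content for 99.3% of tested genes. DESeq2 1.42.0, limma-voom 3.58.1 with sample weights, other filters and scalings, a replicate block and each library left out were the alternatives; removing GC and length trends together, and the GC trend without THC_LPS replicate 3, were chosen after seeing the data. The procedure was tested on simulated data. The members and lists were chosen with earlier results of these data known. Named by rule were the members called, or the 4 with the smallest p per comparison, the leader of each family in FPKM, those with a ratio above 2 and, of the 56 other genes, those called or the 2 with the smallest p. Gria3, Grm5, Grin2b, the members whose groups did not overlap, Grik5, Grin1, Grm4 and Grin2c in the comparisons, and Gabre, were named after their values were seen. Replicates all differed by more than sampling noise, with a chi-square of at least 11.2 per degree of freedom. Some members that the rule names are not reported here by name and are left out of the plots of levels and fold changes; counts and medians over the 41 tested members include them.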

Additional observations from a re-analysis of the deposited data

How the results depend on the processing

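Over 660 alternative values of the 28 comparisons of named members, 0 reversed, 620 stayed on the same side of the threshold and 40 passed it where the reported value did not. For LPS after THC, the count of called members was 0 as reported and 6 by DESeq2, beside 486 of 17208 genes. It was 7 by limma-voom with sample weights, beside 990 of 17208 genes, and 3 with no expression filter. With the GC trend removed it was 2, beside 114 of 17208 genes, and with the length trend removed 1, beside 27. With both removed it was 2, beside 247 of 17208 genes. With the GC trend removed and without THC_LPS replicate 3 it was 0, beside 27 of 17607 genes. Leaving out each library gave 0 to 3, with 3 without THC_LPS replicate 1, 2 without Veh_LPS replicate 1, 1 without THC_LPS replicate 2 and 0 without THC_LPS replicate 3. Gabra2 had log2 fold changes of 0.64 to 1.13 over its 24 alternatives and adjusted p-values of 0.000444 to 0.405, and was called in 9. Gria2 ranged from 0.28 to 0.94. For LPS averaged over pretreatment, 0 members were called as reported, 2 by DESeq2, beside 718 of 17208 genes, and 9 by limma-voom, beside 4080. With GC and length trends removed 3 were called, beside 1459 of 17208 genes. With the GC trend removed and without THC_LPS replicate 3 it was 1, beside 639 of 17607 genes. Median-ratio size factors, no expression filter and a filter of 1 CPM in 3 libraries gave 1 each. Leaving out each library gave 0 to 1. Gabrb1 was called in 10 of 23 alternatives there. For LPS after vehicle the count was 0 as reported and 3 by limma-voom, beside 1853 of 17208 genes. The cause of these differences was not tested. Counts of members without a count over all genes beside them cannot be read against a background.

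The replicate block called 0 members in every comparison and moved the count over all genes to 86 for LPS after vehicle, against 107 without it, to 192 for LPS averaged over pretreatment, against 261, and to 7 for THC without LPS, against 0. Same-numbered libraries had correlations of -0.128 to 0.101, and 0 to 4 of 6 libraries per comparison were closest to their own number. These values show no clear pairing by number, but with 3 libraries a group they cannot exclude a weak one. With 3 libraries a group, a median SE of 0.17 on the log2 scale limits which differences of single members could be called.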
